A study of Mus musculus with 9 samples.

Results

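Mouse splenic CD4+ T cells that had been activated for 3 hours in an incubator at 39 °C were compared with unactivated cells, called naive in the labels. The comparison takes 6 of the 9 libraries of the series, chosen by their labels alone: 3 of cells activated at 39 °C and 3 of naive cells. The remaining 3 libraries, activated at 37 °C, enter only where that temperature is named. All cells came from the spleen of B6 mice, an inbred strain, and total RNA was sequenced. Activation took place in plates coated with antibodies to CD3, which is part of the T cell receptor complex, and to CD28, a costimulatory receptor. The labels name no incubation of the naive cells, so that activation, 3 hours of culture and the temperature cannot be told apart in this comparison. The design text of the series places the isolation of CD4+ cells ahead of activation, whereas the growth protocol puts spleen cells into the plates, so the order is uncertain. Naive here means unactivated: no sort for naive surface markers is named, and Foxp3, the lineage factor of regulatory T cells, was present at 39.5, 49.6 and 45.4 CPM in naive libraries 1 to 3. Nothing states that replicates came from different animals or wells, so p-values measure the spread between these libraries, which may be technical.

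When the T cell receptor and CD28 are engaged together, calcium, Ras and NF-kB signaling start the transcription of early response genes, followed by cytokines and receptors and by the machinery for growth. A resting T cell expresses transcription factors and homing receptors that keep it small and circulating between blood and lymphoid tissue. Warmth to the level of a fever can itself act on cells through the heat shock response, in which heat shock factors raise the transcription of chaperones that refold proteins.

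The 6 libraries held 12647692 to 17605549 counts. Of 28460 genes with any count in them, 12959 passed the filter on low counts and were tested with edgeR's quasi-likelihood test. Levels are given as CPM, counts scaled to a common effective library size, with the SD over 3 libraries (n = 3). Changes are given as log2 fold changes of 39 °C over naive, with the standard error (SE) of the edgeR fit (n = 3 per group). A gene is called when its p-value, adjusted by Benjamini-Hochberg over all tested genes, lies under 0.05. The first principal component held 81.5% of the variance between libraries and separated the groups, and the second, with 10.4%, placed naive library 1 at 31.31 and naive library 2 at -27.84. Naive library 2 also held counts of skeletal muscle genes that the other libraries lacked: Myh4, a fast muscle myosin, had 529 counts there, 1 and 0 in the other naive libraries and 0 in the group at 39 °C. Myl1, Pvalb, Tnni2 and Ckm, all expressed in muscle, had 461, 367, 289 and 266 counts in naive library 2 and at most 5 in any other library of the comparison. None of these genes is used as a result below.

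Genes called higher and genes called lower at 39 °C were close to equal in number. Of 12959 genes tested, 7168 were called, 55.3%. Of these 3612 were higher at 39 °C (27.9% of the genes tested) and 3556 were lower (27.4%). At least 2-fold differences were called in 1176 genes upward (9.07%) and 1192 downward (9.2%), at least 8-fold differences in 123 and 91, and at least 32-fold differences in 25 and 13. The groups did not overlap in any library for 4099 genes that were higher at 39 °C (31.6%) and 3976 that were lower (30.7%). Separate groups were thus common, and for genes named by the largest changes they were required. The median log2 fold change over all tested genes was -0.0009. With upper-quartile scaling in place of TMM the median moved to -0.152 and the split to 2724 higher and 4636 lower, so that small changes of either sign depend on the scaling. As a share of all counts the called genes were not balanced: genes called higher took 21.1% to 22.6% of the counts of a naive library and 38.1% to 38.8% at 39 °C, while genes called lower went from 34.6% to 35.8% down to 21.3% to 22.05%. This share is computed from the same libraries that made the calls and is a description.

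**Figure D1:**
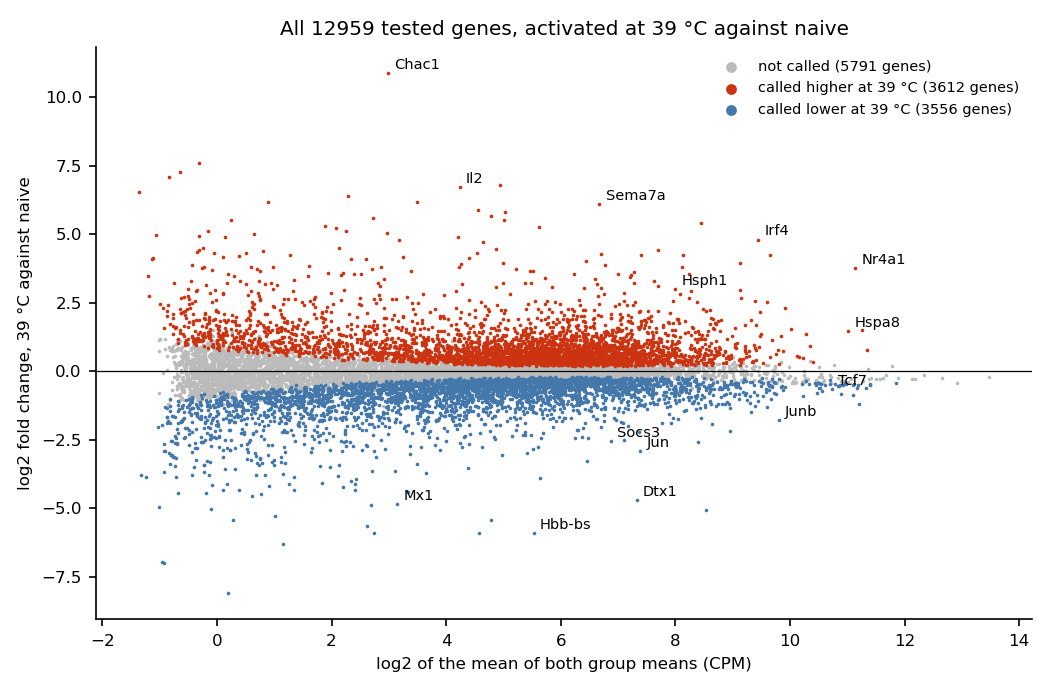
Log2 fold change of 39 °C over naive (vertical axis) against the log2 of the mean level in CPM (horizontal axis), 1 point per tested gene, coloured by call. The 3612 genes called higher and 3556 called lower spread over all levels; Il2, Sema7a and Irf4 lie at the top, and Hbb-bs, Mx1 and Dtx1 at the bottom.

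Markers of other cell types moved with the groups and bear on every result below. The summed level of 16 listed CD4 T cell markers was 8777 to 10704 CPM in naive libraries and 9631 to 10481 CPM at 39 °C, and the groups overlapped. Of the 16, all tested, 3 rose, 5 fell and 8 were not called, with log2 fold changes from -0.93 to 1.29. Cd3e, a chain of the T cell receptor complex, lay at 285, 277 and 262 CPM in naive libraries 1 to 3 and at 284, 259.7 and 274 CPM at 39 °C (log2 fold change -0.01 ± 0.080, SE, adjusted p = 0.915, n = 3 per group). Cd4 was lower, with a log2 fold change of -0.37 ± 0.093 (adjusted p = 0.00815), a call that was lost without 39 °C library 2. Of 18 B cell markers, all tested, 16 fell and 1 rose, and their sum fell from 1115 to 1361 CPM to 444 to 488 CPM. Ighm, the constant region of IgM, went from a mean of 629 to 168 CPM, and Cd22, an inhibitory B cell receptor, from 18.3 to 2.26 CPM. The member that rose was Fcer2a, the low-affinity IgE receptor, from 14.4 to 42.7 CPM (log2 fold change 1.57 ± 0.087, SE), so the B cell list did not move as 1 block.

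Haemoglobin transcripts, which mark red cells and their precursors, showed some of the largest falls of the genes tested. Hbb-bs stood at 119.8, 66.9 and 85.2 CPM in naive libraries 1 to 3 and at 1.71, 1.20 and 1.53 CPM at 39 °C, and Hba-a1 at 65.2, 42.8 and 53.1 against 0.822, 1.28 and 1.67 CPM. The 14 erythroid and platelet markers summed to 144 to 228 CPM in naive libraries and 10.1 to 10.3 CPM at 39 °C. 2 of the 14 had no count at 39 °C, and of the 6 that were tested 5 fell. The haemoglobin genes are near-identical pairs between which reads may be divided arbitrarily. Markers of natural killer cells summed to 43.0 to 44.9 CPM against 17.3 to 19.9 CPM, with 4 of 5 tested members lower, and those of myeloid and dendritic cells to 22.6 to 29.0 against 11.6 to 14.9 CPM, with 7 of 9 lower. Lyz2, a macrophage and neutrophil lysozyme, fell from 4.78 to 0.324 CPM. CD8 T cell markers overlapped between the groups in sum (34.5 to 42.7 against 32.7 to 36.3 CPM), while Cd8a and Cd8b1, the chains of CD8 itself, fell, with log2 fold changes of -1.78 ± 0.20 and -1.05 ± 0.14 (SE). The third marker tested, Crtam, a receptor of cytotoxic and activated T cells, rose, with a log2 fold change of 1.33 ± 0.12 (SE). In bulk libraries, fewer cells of a type and less RNA per cell cannot be told apart, and the part of other cell types in the results below was not tested.

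**Figure D2:**
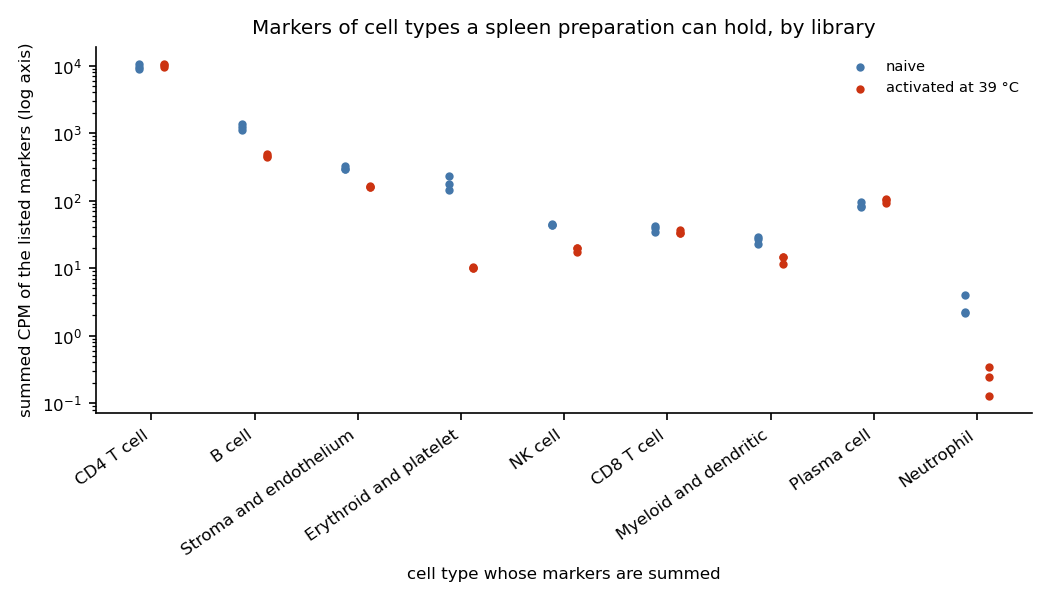
Summed CPM (log axis) of listed markers of 9 cell types in each of the 3 naive libraries and the 3 libraries at 39 °C, 1 point per library. The CD4 T cell sums overlap between the groups, B cell sums drop from 1115 or more to 488 or less, and erythroid and platelet sums drop from 144 or more to about 10.

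Most early response transcription factors rose. Of 30 listed, 28 were tested, 20 rose and 6 fell, with a median log2 fold change of 2.41 (the median over all genes was -0.0009). Irf4, a factor whose level follows the strength of receptor signaling, lay at 46.3, 53.7 and 44.2 CPM in naive libraries 1 to 3 and at 1289, 1354 and 1406 CPM at 39 °C, a 28.1-fold rise (log2 fold change 4.81 ± 0.12, SE, adjusted p = 9.45e-09). Egr2, a zinc finger factor, had 19.9, 17.9 and 17.8 CPM in naive libraries and 397, 396 and 396 CPM at 39 °C. The 3 libraries of each group lay close together for both genes and the groups did not overlap. The orphan nuclear receptor Nr4a1 went from 307, 298 and 318 to 4299, 4255 and 4092 CPM, the largest gain in CPM of any gene under the naming rule. Its relative Nr4a3 rose by a log2 fold change of 4.25 ± 0.11 and Nr4a2 by 3.45 ± 0.083 (SE). Egr1 and Egr3 rose by 3.94 ± 0.090 and 4.26 ± 0.094, the stress factor gene Atf3 by 5.68 ± 0.12, and Myc, a driver of cell growth, by 2.53 ± 0.087 (log2 fold change ± SE). Egr4 had no count in a naive library and 22, 9 and 25 counts at 39 °C, which is at least 20.4-fold higher when the naive group is set to 3 counts in all, a bound that covers counting error only.

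AP-1 genes moved in both directions, and Fos, Jun and Junb fell. Fos was at 290.0, 253 and 266 CPM in naive libraries 1 to 3 and at 61.6, 56.99 and 57.9 CPM at 39 °C, a log2 fold change of -2.20 ± 0.087 (SE, adjusted p = 1.23e-07). Jun fell from 305, 283 and 297 to 41.7, 38.6 and 36.5 CPM and Junb from 1478, 1254 and 1435 to 422, 406 and 377 CPM. These 3 genes encode subunits of the AP-1 factor, and every naive library lay above every library at 39 °C for each of them. Fosl2, a relative of Fos, rose from 59.3, 80.9 and 74.8 to 409, 419 and 447 CPM, and Fosb and Jund fell, with log2 fold changes of -1.66 ± 0.096 and -1.04 ± 0.15 (SE); these 3 members, and Fosl1 with 4 counts over the naive group and 79 at 39 °C, are named after their values were seen. Batf, another AP-1 family member, was at 35.1, 28.4 and 32.3 against 30.5, 27.4 and 27.1 CPM and was not called (adjusted p = 0.191).

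Most secreted cytokine genes that could be tested rose. Of 29 listed, 15 were tested; 10 rose, 1 fell and 4 were not called, and the 14 others had too few counts to test. Il2 (chromosome 3, 37120523 to 37125959 on GRCm38, gene ENSMUSG00000027720) encodes interleukin 2, the T cell growth factor. Its level was 0.474, 0.425 and 0.168 CPM in naive libraries 1 to 3 and 39.9, 38.4 and 33.6 CPM at 39 °C (log2 fold change 6.73 ± 0.22, SE, adjusted p = 3.47e-08). Tnf rose from 18.5, 15.5 and 16.02 to 339.7, 314 and 306 CPM, Lta (lymphotoxin alpha) from 29.7, 22.1 and 26.3 to 186, 168 and 171 CPM, and the chemokine gene Ccl4 from 0.474, 0.142 and 0.28 to 24.2, 21.2 and 20.9 CPM. All 4 genes were separated between the groups without overlap, as were 31.6% of all tested genes in the same direction. Effector cytokines of differentiated helper cells were near the detection limit: Ifng had 9 counts over the naive group and 19 over the group at 39 °C, Il4 29 and 30, Il17a 1 and 2. Il21, a follicular helper cytokine, lay at 2.37, 2.13 and 1.62 against 1.20, 1.20 and 2.08 CPM and was not called. The 1 cytokine gene that fell, Ccl5, a chemokine of memory and cytotoxic lymphocytes, had a log2 fold change of -2.74 ± 0.22 (SE); it and Cxcl10, which rose by 2.08 ± 0.28, are named here after their values were seen.

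**Figure D3:**
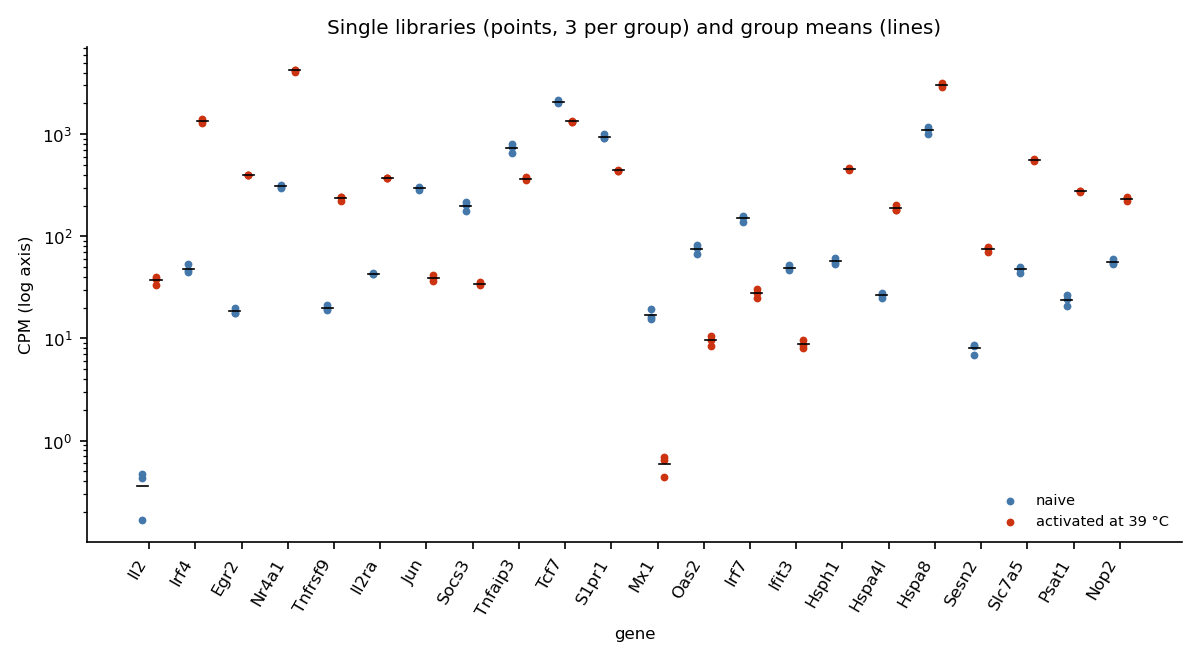
CPM (log axis) of 22 genes in the single libraries, 3 naive and 3 at 39 °C, with a line at each group mean. No gene shown has overlapping groups, as held for 31.6% of all tested genes upward and 30.7% downward. The distance between the groups reaches from about 1.56-fold for Tcf7 to about 106-fold for Il2.

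Receptors for these signals moved in both directions. Among genes of the TNF ligand and receptor families 13 of 17 tested rose and 2 fell. Tnfrsf9 (4-1BB), a costimulatory receptor, rose from 19.6, 19.1 and 21.1 to 243, 241 and 222 CPM, and Tnfsf14 (LIGHT), a costimulatory ligand, from 1.08, 0.354 and 0.84 to 48.5, 44.5 and 46.6 CPM. Tnfsf11 (RANKL) had a log2 fold change of 3.67 ± 0.13, Tnfrsf4 (OX40) of 1.78 ± 0.12 and Cd40lg, the ligand by which helper T cells act on B cells, of 0.76 ± 0.079 (SE). Of 21 costimulatory and inhibitory receptors tested, 12 rose and 5 fell, against 27.9% and 27.4% of all genes. Cd69, an early activation antigen, rose from 205, 177 and 204 to 1214, 1139.9 and 1110.0 CPM, and Cd274 (PD-L1) from 41.6, 35.4 and 33.9 to 360.3, 356 and 362 CPM. The groups lay apart for both. Pdcd1 (PD-1), Slamf1, Icos and Cd5 rose by 3.40 ± 0.11, 3.62 ± 0.089, 1.61 ± 0.082 and 1.29 ± 0.087 (log2 fold change ± SE). Ctla4, an inhibitory receptor that regulatory T cells carry at rest, fell from 125, 107 and 104 to 59.5, 60.4 and 56.3 CPM. Cd28 and Cd44, an adhesion receptor of activated and memory cells, were not called (log2 fold changes 0.17 ± 0.082 and 0.13 ± 0.082, SE).

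Cytokine receptor genes fell more often than they rose: of 25 tested, 5 rose and 12 fell, against 27.9% and 27.4% of all genes. Il2ra (CD25), which gives the interleukin 2 receptor its high affinity, was at 42.7, 43.4 and 42.7 CPM in naive libraries and at 372, 376 and 373 CPM at 39 °C (log2 fold change 3.12 ± 0.078, SE). The shared chain Il2rg rose by 0.54 ± 0.12 and Il2rb was not called (0.18 ± 0.083, log2 fold change ± SE, adjusted p = 0.0922), so the chains of 1 receptor had different changes. Il7r, the receptor for the survival cytokine interleukin 7, fell from 882, 843 and 792 to 481, 493 and 503 CPM. Tgfbr3, Il10ra and Il18r1 fell, with log2 fold changes of -1.40 ± 0.10, -1.13 ± 0.12 and -1.03 ± 0.080 (SE). Downstream of these receptors, 11 of 22 STAT, JAK and SOCS genes rose and 7 fell, against 27.9% and 27.4% of all genes. The number that fell was 8 without naive library 1 and 5 without any other single library. Socs3, a feedback inhibitor of interleukin 6 signaling, fell from 178, 205 and 215 to 35.6, 33.9 and 33.5 CPM, whereas Cish, a feedback inhibitor of interleukin 2 signaling, rose from 18.01, 14.9 and 16.6 to 89.3, 91.1 and 89.5 CPM. Jak2 rose by 1.59 ± 0.084 and the kinase gene Pim3 by 1.19 ± 0.088 (log2 fold change ± SE).

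Within the signaling cascade itself, receptor proximal genes were divided. Of 34 tested, 11 rose and 14 fell, against 27.9% and 27.4% of all genes. Lcp2 (SLP-76), an adaptor that the receptor kinases phosphorylate, rose from 284, 268 and 274 to 1026, 1008 and 991 CPM, and Ubash3b, a phosphatase that dampens the signal, by 1.81 ± 0.095 (log2 fold change ± SE). Sit1, an inhibitory adaptor, and Themis, which sets signal strength, fell, with log2 fold changes of -2.31 ± 0.13 and -1.68 ± 0.082 (SE). Ptprc (CD45), the phosphatase that sets the activity of the Lck kinase, rose from 1786, 2078 and 1925 to 3114, 3272 and 3479 CPM.

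The NF-kB genes were mostly higher, with 13 of 20 called upward and 3 downward. Nfkb1 rose from 291, 344 and 338 to 1575, 1623 and 1619 CPM, Rel by 2.29 ± 0.12 and Relb by 1.76 ± 0.083 (log2 fold change ± SE); all 3 encode subunits of the factor. Nfkbid, a nuclear regulator that binds p50, went from 127, 121 and 129 to 1034, 989 and 944 CPM. Tnfaip3 (A20), which removes ubiquitin chains and limits NF-kB signaling, fell from 651, 806 and 755 to 354, 379.5 and 371 CPM. Its libraries did not overlap between groups. Nfkbia, the inhibitor IkB alpha and a classical target of NF-kB, rose by 0.75 ± 0.10 (log2 fold change ± SE, adjusted p = 0.000195).

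Calcium and Ras feedback genes were likewise mixed. Among NFAT, calcineurin and calcium entry genes 8 of 23 rose and 9 fell, against 27.9% and 27.4% of all genes. The transcription factor gene Nfatc1 rose from 150.3, 174 and 159 to 613, 618 and 639 CPM and Orai1, the pore of the store-operated calcium channel, from 70.4, 48.6 and 59.5 to 289, 272 and 247 CPM. Stim1, the calcium sensor that opens Orai1 (-0.42 ± 0.11), and the calcineurin subunit gene Ppp3cc (-1.56 ± 0.11, log2 fold change ± SE) fell. Rcan1, a calcineurin regulator, was not called (0.17 ± 0.13, log2 fold change ± SE). Of 16 MAP kinase phosphatases and Ras inhibitors 10 rose and 5 fell, against the same shares of all genes. Spry1, an inhibitor of Ras signaling, rose from 11.4, 9.22 and 9.46 to 167, 163 and 158 CPM, and Dusp2, which removes phosphate from ERK in the nucleus, from 326, 246 and 265 to 975, 925 and 840.0 CPM. Dusp10, which acts on the stress kinases JNK and p38, fell from 228, 206 and 208 to 59.6, 56.1 and 56.4 CPM. Of 15 RNA decay factors 6 rose and 4 fell, against 27.9% and 27.4% of all genes, and 2 fell without 39 °C library 2. Zfp36l1 rose (1.11 ± 0.11) and its relative Zfp36l2 fell (-1.32 ± 0.084, log2 fold change ± SE).

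Genes of the resting state fell in part. Of 32 naive cell and quiescence factors, all tested, 17 fell, 6 rose and 9 were not called, with a median log2 fold change of -0.317. Tcf7 (TCF-1), a factor of naive and memory T cells, was at 2164, 2015 and 2051 CPM in naive libraries and at 1344, 1325 and 1329 CPM at 39 °C (log2 fold change -0.64 ± 0.090, SE, adjusted p = 0.000267). Klf2, which maintains quiescence and the expression of S1pr1, fell from 1112, 768 and 953 to 415, 420.0 and 359 CPM. Foxo1, a factor upstream of Klf2 (-1.06 ± 0.076), Lef1 (-0.83 ± 0.10) and Txnip, an inhibitor of glucose uptake (-1.46 ± 0.10, log2 fold change ± SE), fell as well. For each of these genes every naive library was above every library at 39 °C. Tsc22d3 (GILZ), a glucocorticoid target, and the PI3 kinase inhibitor gene Pik3ip1 fell, with log2 fold changes of -1.70 ± 0.11 and -1.18 ± 0.086 (SE). Against this, Bach2, a repressor of effector genes, rose by 0.68 ± 0.11 (log2 fold change ± SE), and Vsir (VISTA), a quiescence receptor, from 378, 417 and 433 to 1044, 1005 and 992 CPM.

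Homing genes fell for the most part: 16 of 27 were lower and 4 higher, with a median of -0.51. S1pr1, the receptor by which T cells leave lymphoid tissue, fell from 1015, 909 and 911 to 440.0, 449.7 and 440.3 CPM. Ccr7, a chemokine receptor that brings cells into lymph nodes, fell, with a log2 fold change of -0.55 ± 0.097 (SE). Itgb7, part of the gut homing integrin (-2.18 ± 0.098), and Selplg, the P-selectin ligand (-1.19 ± 0.090, log2 fold change ± SE), also fell. Tissue chemokine receptors moved up from low levels: Ccr8 from 3.18, 4.11 and 4.14 to 58.1, 60.3 and 61.1 CPM and Ccr4 from 1.96, 1.91 and 2.13 to 12.01, 11.9 and 13.5 CPM. Of 8 GIMAP genes, which encode lymphocyte GTPases that support survival, 6 fell and 0 rose. Gimap6 (-0.90 ± 0.086) and Gimap3 (-0.46 ± 0.090, log2 fold change ± SE) fell, but the count of GIMAP calls went down to 3 without 39 °C library 2 or without 39 °C library 3.

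The type I interferon response was the gene group with the most uniform fall. Of 39 listed genes 38 were tested and all 38 were called lower (27.4% of all genes were), with a median log2 fold change of -1.84 and a range of -4.84 to -0.43. The count was 38 of 38 without any single library and with each scaling tried. Mx1, an antiviral GTPase, was at 15.5, 19.4 and 16.3 CPM in naive libraries 1 to 3 and at 0.443, 0.641 and 0.695 CPM at 39 °C (log2 fold change -4.84 ± 0.20, SE, adjusted p = 1.66e-07). Oas2, which makes the second messenger that activates RNase L, fell from 66.5, 81.5 and 77.2 to 8.41, 10.7 and 9.73 CPM. Irf7, the factor that amplifies interferon production, fell from 159, 139 and 154 to 30.7, 27.8 and 25.1 CPM. Naive libraries were higher than those at 39 °C in every case. Ifit1 (-2.74 ± 0.11) and Ifit3 (-2.48 ± 0.11), which bind foreign RNA, Isg15, a ubiquitin-like modifier (-2.17 ± 0.17), and Xaf1 (-2.41 ± 0.099, log2 fold change ± SE) fell too. These genes are expressed by many cell types, and the fall went with lower sums of B cell, natural killer and myeloid markers, whose part in the result was not tested. The CD4 T cell marker sums overlapped between the same groups, with 3 of 16 members called higher and 5 lower.

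Promoters of 27 of the 38 tested interferon genes were found in RefSeq (GRCm38.p6), 33 promoters in all because some genes have several starts. The interferon-stimulated response element was searched as GAAA, any 2 bases and GAAA again, on both strands, within the 250 bases before the start. It was found in 12 of the 33 promoters (36.4%), against 2.98% of all 32851 promoters of that length. Among promoters of genes called at least 4-fold lower, outside the interferon list, the share was 5.49%, and among those of genes called at least 4-fold higher 2.11%. The first 3 sequences below are promoters of genes that fell and hold more than 1 match. The fourth is that of Nfkbia, which rose, with an NF-kB motif, searched as GGGA, any base and TTTCC on both strands and found in 3 of 22 promoters of the NF-kB list (13.6%) and in 0.356% of all promoters. Each is the 250 bases before the start, 5′ to 3′ on the strand of the gene, with matches in capitals, and matches may overlap. Ifit3 lies on the plus strand at chr19:34583279-34583528, Ifit1 on the plus strand at chr19:34640639-34640888, Isg15 on the minus strand at chr4:156200819-156201068 and Nfkbia on the minus strand at chr12:55492648-55492897.
Ifit3: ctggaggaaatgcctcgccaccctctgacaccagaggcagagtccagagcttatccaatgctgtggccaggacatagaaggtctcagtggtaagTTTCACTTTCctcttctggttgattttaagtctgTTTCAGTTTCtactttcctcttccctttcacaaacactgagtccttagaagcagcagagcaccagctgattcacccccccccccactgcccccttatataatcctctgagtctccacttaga
Ifit1: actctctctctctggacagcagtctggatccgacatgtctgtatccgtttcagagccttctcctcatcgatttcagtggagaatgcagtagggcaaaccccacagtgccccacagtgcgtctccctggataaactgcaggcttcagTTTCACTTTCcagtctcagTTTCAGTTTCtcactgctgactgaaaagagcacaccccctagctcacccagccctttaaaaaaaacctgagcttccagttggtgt
Isg15: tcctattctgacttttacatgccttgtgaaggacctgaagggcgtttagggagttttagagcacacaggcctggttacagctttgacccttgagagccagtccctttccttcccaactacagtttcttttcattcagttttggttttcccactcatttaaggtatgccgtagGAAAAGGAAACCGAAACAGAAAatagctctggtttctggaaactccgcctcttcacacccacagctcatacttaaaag
Nfkbia: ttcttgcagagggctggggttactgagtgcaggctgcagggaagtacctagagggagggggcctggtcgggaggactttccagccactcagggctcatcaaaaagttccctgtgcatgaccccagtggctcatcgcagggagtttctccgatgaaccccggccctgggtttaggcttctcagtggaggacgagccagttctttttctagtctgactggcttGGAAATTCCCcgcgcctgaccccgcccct
In Ifit3 the matches begin 156 and 122 bases before the start, in Ifit1 104 and 85 bases before it, and in Isg15 3 overlapping matches begin 78, 72 and 66 bases before it. In Nfkbia the match begins 29 bases before the start. A match describes the letters and is no measurement of binding.

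MHC class I pathway genes, of which several are also induced by interferon, fell in 12 of 18 cases and rose in 2. The immunoproteasome genes Psmb8, Psmb9 and Psmb10, which shape peptides for presentation, fell, with log2 fold changes of -1.02 ± 0.12, -1.06 ± 0.12 and -1.01 ± 0.12 (SE). H2-K1, a classical class I heavy chain, was at 5814, 4926 and 5435 CPM in naive libraries and 5259, 5039.8 and 4658 CPM at 39 °C, overlapped between the groups and was not called (adjusted p = 0.418). H2 genes resemble each other closely, so reads may be divided between them.

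Cytosolic chaperones rose as a group. Of 16 Hsp70 and Hsp110 family genes and their exchange factors 11 rose and 1 fell, and of 15 Hsp90 genes and co-chaperones 13 rose and 0 fell, with a median log2 fold change of 0.949 for the Hsp90 list. Hsph1 (Hsp110), a nucleotide exchange factor for Hsp70, was at 53.2, 56.3 and 60.9 CPM in naive libraries 1 to 3 and at 457, 449 and 463 CPM at 39 °C (log2 fold change 3.004 ± 0.088, SE, adjusted p = 2.25e-08). Hspa4l, a relative of it, rose from 26.5, 27.7 and 25.1 to 179.5, 182 and 204 CPM. Hspa8, the constitutive Hsp70, had 1117, 1011 and 1172 CPM in naive libraries and 3185, 3039 and 2915 CPM at 39 °C. Every library at 39 °C lay above every naive library for these 3 genes. Hsp90ab1 and Hsp90aa1, the constitutive and inducible Hsp90, rose by 1.51 ± 0.098 and 1.72 ± 0.081, and their co-chaperones Stip1 and Fkbp4 by 1.78 ± 0.085 and 1.16 ± 0.079 (log2 fold change ± SE). Per kilobase of exon, which allows levels of different genes to be compared, Hsp90ab1 had a mean level of 1209 CPM at 39 °C, Hspa8 708 CPM and Nr4a1 1201 CPM.

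The stress-inducible Hsp70 genes, by contrast, stayed at low levels. Hspa1a was at 1.29, 0.922 and 1.40 CPM in naive libraries and at 4.36, 3.61 and 3.54 CPM at 39 °C, and Hspa1b at 5.15, 5.25 and 5.10 against 9.55, 8.50 and 7.37 CPM. Both were called higher (log2 fold changes 1.66 ± 0.23 and 0.72 ± 0.15, SE), yet per kilobase of exon they reached 1.29 and 3.02 CPM, far under Hspa8. They are near-identical copies whose reads cannot be assigned with certainty, and they are named after their values were seen, as is Bag3, an Hsp70 co-chaperone that heat induces, which fell (-0.50 ± 0.12, log2 fold change ± SE). Of 12 heat shock factors and small heat shock proteins 8 were tested; 1 rose and 4 fell. Hsf1, the master factor of the heat shock response, rose from 112, 108 and 107 to 158, 164 and 149.7 CPM. Cirbp, an RNA-binding protein induced by cold, fell from 233, 198 and 218 to 120.3, 109 and 104 CPM, and Rbm3, another one, was at 326, 261 and 274 against 264, 249.9 and 245 CPM and was not called (adjusted p = 0.147). A heat shock element was searched on both strands as GAA, TTC and GAA with any 2 bases between them. Within 250 bases before the start it was in 0 of 14 promoters of the Hsp70 list and 0 of 13 of the Hsp90 list. It was in 3 of 21 of the mitochondrial chaperone list (14.3%) and 2 of 29 of the DnaJ list (6.9%, from 1 gene), against 0.466% of all promoters. The absence from the Hsp70 and Hsp90 lists says only that these letters are not in those windows.

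Chaperones of other compartments were higher too. Of 22 mitochondrial chaperones and import factors 19 rose and 0 fell: Hspd1 (Hsp60) from 119.8, 107 and 111 to 437, 409.6 and 402 CPM, and Hspa9, the mitochondrial Hsp70, by 1.74 ± 0.078 (log2 fold change ± SE). Of 15 subunits of the CCT chaperonin and prefoldin, which fold actin and tubulin, 10 rose and 1 fell, with Cct3 at 1.42 ± 0.088 (log2 fold change ± SE). Among 21 DnaJ genes, which stimulate Hsp70, 13 rose and 4 fell, with smaller changes, such as 0.71 ± 0.10 for Dnaja1 and 0.86 ± 0.076 (log2 fold change ± SE) for Dnajc2. In the endoplasmic reticulum 14 of 24 genes rose and 4 fell. Hspa5 (BiP), the main chaperone there, rose from 401, 409.6 and 420.5 to 803, 766 and 749.7 CPM, Hyou1 by 1.11 ± 0.11 and Canx (calnexin) by 1.002 ± 0.084 (log2 fold change ± SE). Eif2ak3 (PERK), a sensor of unfolded protein in that compartment, fell (-0.98 ± 0.084, log2 fold change ± SE).

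The same genes were set beside the activation at 37 °C in a fit of all 9 libraries. The contrasts of 37 °C and 39 °C against naive share the naive libraries, so their values are given side by side, and the difference is tested by 39 °C against 37 °C directly. That test called 101 of 13328 genes (0.758%), 18 higher (0.135%) and 83 lower (0.623%) at 39 °C, where 37 °C against naive called 62.7%. Hsph1 had a log2 fold change of 4.02 at 37 °C and 2.99 at 39 °C, a difference of -1.03 ± 0.070 (SE, adjusted p = 2.83e-05). Hsp90aa1, Stip1, Fkbp4, Hspa8, Hsp90ab1 and Hspd1 were also lower at 39 °C than at 37 °C, with differences of -0.64 ± 0.067, -0.57 ± 0.071, -0.55 ± 0.066, -0.47 ± 0.085, -0.46 ± 0.076 and -0.40 ± 0.071 (log2 fold change ± SE). All 7 chaperone genes were above naive at both temperatures. The other named genes lower at 39 °C than at 37 °C were Runx3, Ccnd2, Tnfaip3, Tnfsf14 and Dusp10, from -0.81 ± 0.096 for Runx3 to -0.35 ± 0.068 (log2 fold change ± SE) for Dusp10. Higher at 39 °C were Ddit3 (0.59 ± 0.084), Slc1a4 (0.53 ± 0.088), Trib3 (0.48 ± 0.082), Gpr83, Thy1, Egr3 and Atf3 (0.38 ± 0.076, log2 fold change ± SE). Of the 18 genes higher at 39 °C than at 37 °C, 15 were higher and 3 lower than naive in the fit of 6 libraries. Of the 81 genes lower at 39 °C than at 37 °C that were tested in both fits, 45 were higher than naive, 17 lower and 19 not called.

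**Figure D4:**
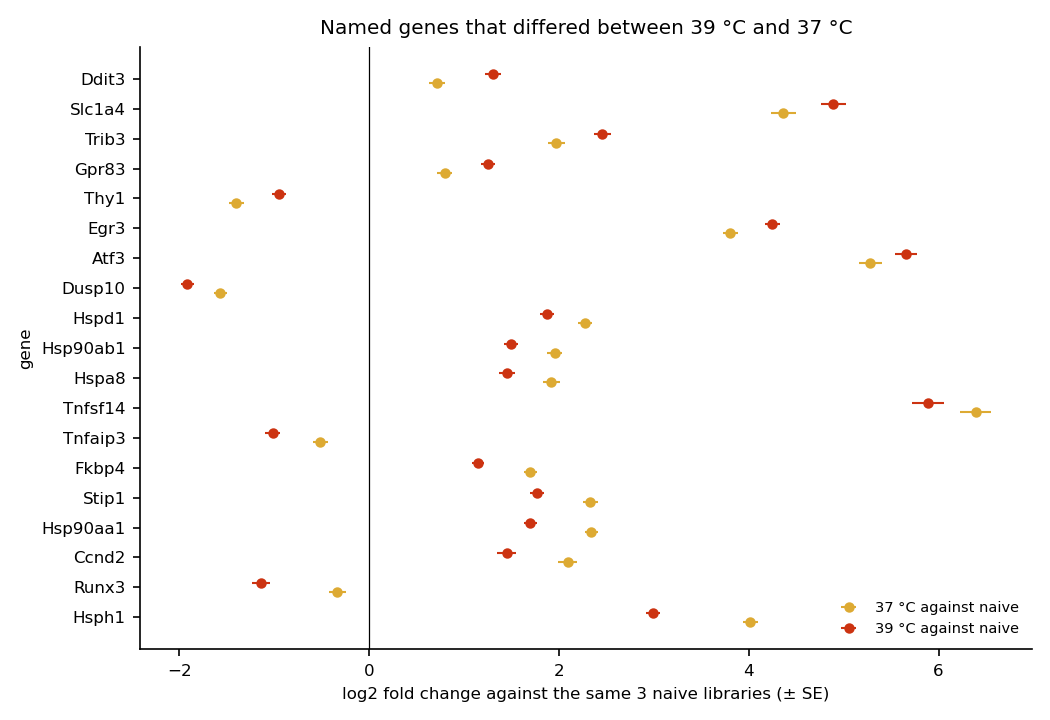
Log2 fold change against the same 3 naive libraries (horizontal axis, ± SE of the fit of all 9 libraries) at 37 °C and at 39 °C for the 19 named genes called between the temperatures, in order of the difference. Hsph1 has the largest difference downward (4.02 at 37 °C and 2.99 at 39 °C) and Ddit3 the largest upward.

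Genes of the amino acid stress response and of amino acid supply rose strongly. In the list of ATF4 and CHOP targets 14 of 18 genes were tested, 11 rose and 1 fell, with a median of 2.13, also when Chac1 is set to its bound. Chac1, an enzyme that degrades glutathione, had no count in a naive library and 253, 197 and 228 counts at 39 °C, at least 247-fold higher when the naive group is set to 3 counts in all. Sesn2 (Sestrin 2), a leucine sensor, rose from 6.91, 8.44 and 8.57 to 77.1, 70.8 and 77.9 CPM. Trib3 rose from 13.1, 12.1 and 14.2 to 80.2, 70.9 and 68.4 CPM, Gpt2, an alanine transaminase, by 4.19 ± 0.17, and Ddit3 (CHOP) by 1.33 ± 0.097 (log2 fold change ± SE). For each of these the libraries at 39 °C lay above all naive ones. Atf4 itself, which is regulated mainly in translation, rose by 0.63 ± 0.090 (log2 fold change ± SE). Ppp1r15a (GADD34), which reverses the phosphorylation of eIF2 alpha, was the 1 member that fell, from 381, 411 and 431 to 125, 120.3 and 119 CPM. Asns (asparagine synthetase) and Slc7a11, the cystine transporter, named after their values were seen, went from 0.135, 0.425 and 0 to 7.71, 7.53 and 6.39 CPM and from 0, 0.0709 and 0.056 to 2.15, 2.004 and 2.85 CPM.

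Of 18 amino acid transporters tested 11 rose and 4 fell. Slc7a5 (LAT1), which takes up leucine and other large neutral amino acids, was at 44.2, 50.6 and 48.4 CPM in naive libraries and 557, 567 and 551 CPM at 39 °C (log2 fold change 3.55 ± 0.091, SE, adjusted p = 1.08e-08). Its partner Slc3a2 rose by 1.84 ± 0.084 (log2 fold change ± SE), the glutamine transporter gene Slc1a5 from 255, 251 and 266 to 1207, 1179 and 1112 CPM, and Slc1a4 from 0.88, 1.42 and 1.23 to 34.3, 36.95 and 35.4 CPM. Serine, one-carbon and proline synthesis showed 14 of 18 genes higher and 1 lower, with a median of 1.59. Psat1, a step of serine synthesis, rose from 26.5, 20.8 and 24.4 to 277, 279 and 269 CPM, Shmt1 and Shmt2, which pass one-carbon units from serine to folate, by 3.57 ± 0.098 and 2.67 ± 0.091, and Mthfd2 by 2.41 ± 0.090 (log2 fold change ± SE). Bcat1, which starts the breakdown of branched amino acids, rose from 1.29, 0.993 and 1.12 to 63.3, 63.96 and 64.9 CPM. Of 20 aminoacyl-tRNA synthetases 19 rose and 0 fell, with a median of 1.38. Cars, Yars, Nars and Tars, which charge tRNA with cysteine, tyrosine, asparagine and threonine, rose by 2.39 ± 0.082, 2.07 ± 0.079, 1.91 ± 0.078 and 1.84 ± 0.078 (log2 fold change ± SE).

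Ribosome biogenesis was the group with the most uniform rise: all 35 listed factors were called higher (27.9% of all genes were), with log2 fold changes from 0.751 to 2.19 and a median of 1.58. Nop2, an rRNA methyltransferase, rose from 54.2, 53.7 and 59.6 to 241, 236 and 219.9 CPM, Ncl (nucleolin) from 488, 565 and 539 to 1620.0, 1511 and 1539 CPM and Grwd1, a chaperone of ribosomal protein L3, by 2.19 ± 0.081 (log2 fold change ± SE). Npm1 (nucleophosmin) rose least among those named, by 0.75 ± 0.11 (log2 fold change ± SE). Of 39 translation initiation factors 26 rose and 2 fell, or 5 without naive library 2. Among those that rose were Eif1a (1.84 ± 0.11), Eif3c (1.58 ± 0.086) and the cap-binding Eif4e (1.47 ± 0.10, log2 fold change ± SE). Of 31 nuclear pore and transport genes 25 rose and 1 fell, with the importin gene Ipo4 at 2.42 ± 0.11 and Rcc1 at 1.71 ± 0.084 (log2 fold change ± SE).

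The ribosomal proteins themselves did not share this direction. Of 79 cytosolic ribosomal protein genes 1 rose, 37 fell and 41 were not called, with a median log2 fold change of -0.410. Rpl3 was at 2393, 1928 and 2277 CPM in naive libraries and 1626, 1523 and 1410.0 CPM at 39 °C (log2 fold change -0.53 ± 0.11, SE, adjusted p = 0.00335). The summed level of the 79 genes was 150753, 101839 and 122366 CPM in naive libraries 1 to 3 and 105563, 95663 and 84534 CPM at 39 °C, so the groups overlapped, with naive library 2 under 39 °C library 1. The number called lower rested on single libraries: it was 71 without naive library 2, 14 without naive library 3, 6 without 39 °C library 2 and 3 without 39 °C library 3. Upper-quartile scaling gave 70. Many ribosomal protein genes have processed copies in the genome that can share their reads. Rps10, the gene that rose, was counted at 9.41, 7.94 and 9.91 CPM in naive libraries, far under the level of Rpl3.

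Nucleotide and polyamine synthesis rose together with growth genes. Of 21 purine and pyrimidine synthesis genes 15 rose and 2 fell, such as Ctps, which makes CTP (2.04 ± 0.077), Umps (1.89 ± 0.092) and Ppat, the first step of purine synthesis (1.30 ± 0.075, log2 fold change ± SE). Of 10 polyamine genes tested 6 rose and 1 fell. Odc1, the rate-limiting enzyme of polyamine synthesis, rose from 242, 205 and 232 to 1359.8, 1336 and 1269 CPM and Srm (spermidine synthase) from 46.3, 32.97 and 39.8 to 249, 241 and 215 CPM. Proteasome subunits were higher in 24 of 33 cases and lower in 0, by small amounts (median 0.458), with Psmd1 at 0.98 ± 0.089 and Psmd11 at 0.89 ± 0.076 (log2 fold change ± SE).

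Energy metabolism showed no single direction. Of 26 glycolysis and pentose phosphate genes 14 rose and 8 fell, against 27.9% and 27.4% of all genes. Hk2, an inducible hexokinase, rose from 0.745, 1.56 and 2.13 to 19.03, 18.7 and 20.5 CPM, the lactate transporter gene Slc16a1 from 34.5, 29.7 and 28.8 to 115, 118 and 114 CPM, and Ldha (lactate dehydrogenase) by 0.75 ± 0.11 (log2 fold change ± SE). The glucose transporters differed: Slc2a1 rose (0.37 ± 0.074) and Slc2a3 fell (-0.54 ± 0.092, log2 fold change ± SE). Pkm (pyruvate kinase) was not called (0.06 ± 0.099, log2 fold change ± SE, adjusted p = 0.624). Of 36 nuclear-encoded respiratory chain subunits 5 rose and 5 fell, against the same shares of all genes, and 26 were not called. Their median was -0.023. The counts rested on single libraries, with 11 lower without naive library 2, 8 higher without naive library 1, and 3 lower without naive library 3, 39 °C library 2 or 39 °C library 3. Cycs (cytochrome c) rose (1.33 ± 0.12) and Ndufb10 fell (-0.73 ± 0.12, log2 fold change ± SE). Of the 10 mitochondrially encoded transcripts tested 1 was called lower, mt-Nd6, and 0 without 39 °C library 2 or library 3, but 5 without naive library 2, 2 without naive library 3 and 5 with upper-quartile scaling.

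Sterol genes rose in 18 of 29 cases and fell in 8, against 27.9% and 27.4% of all genes. Cyp51, an enzyme of cholesterol synthesis, rose from 33.9, 31.7 and 31.4 to 125, 117 and 122 CPM, whereas Abcg1, which exports sterol, fell from 110.0, 124 and 119 to 38.1, 42.1 and 44.3 CPM. The groups were separate for both. Of 31 autophagy and lysosome genes 6 rose and 11 fell, against 27.9% and 27.4% of all genes. Ctsd (cathepsin D) was at -1.31 ± 0.12 and Tfe3, a lysosomal transcription factor, at 1.05 ± 0.086 (log2 fold change ± SE). In the list of mTOR and nutrient sensing genes 10 of 24 rose and 5 fell, against the same shares of all genes. Without 39 °C library 2, 5 rose. Pdk1 fell from 375, 389 and 386 to 106, 102 and 105 CPM. It encodes pyruvate dehydrogenase kinase 1, an enzyme of pyruvate metabolism, so its fall does not speak for the mTOR pathway.

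Survival and cell cycle genes moved in both directions. Among Bcl2 family genes 7 of 14 tested rose and 3 fell, against 27.9% and 27.4% of all genes. Bcl2l1 (Bcl-xL), an inhibitor of apoptosis, rose from 19.6, 17.4 and 20.2 to 97.1, 96.5 and 82.8 CPM, and Bcl2 fell (-0.40 ± 0.076, log2 fold change ± SE). Bcl2l11 (Bim), which promotes apoptosis, rose by 0.71 ± 0.076 and Mcl1 was not called (-0.10 ± 0.087, log2 fold change ± SE). Bcl2a1d and Bcl2a1b rose by 4.46 ± 0.16 and 3.12 ± 0.18 (log2 fold change ± SE), but the Bcl2a1 genes are near-identical copies and their single values are uncertain. Of 32 cell cycle entry genes 11 rose and 13 fell, against 27.9% and 27.4% of all genes. Cdkn1a (p21), an inhibitor of cyclin-dependent kinases, rose from 1.56, 1.35 and 1.23 to 66.2, 62.4 and 59.7 CPM, while the inhibitors Cdkn1b (p27) and Cdkn2d (p19) fell, with log2 fold changes of -0.76 ± 0.084 and -2.45 ± 0.14 (SE). Ccnd2 (cyclin D2) rose from 202, 273 and 228 to 619, 645 and 672 CPM and Cdk4 by 0.72 ± 0.10, and the transcription factor gene E2f2 fell (-2.54 ± 0.13, log2 fold change ± SE). Of 18 listed p53 targets 13 rose and 0 fell, among them Cdkn1a and Sesn2, Plk3 (2.46 ± 0.079) and the exonuclease gene Aen (2.25 ± 0.10, log2 fold change ± SE).

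Notch genes and TRP channels were given their own lists. Of 28 Notch receptors, ligands and processing genes tested 9 rose and 6 fell, against 27.9% and 27.4% of all genes. The number that rose was 3 without 39 °C library 2 and 4 without 39 °C library 3. Notch1 was at 83.03, 217 and 184 CPM in naive libraries 1 to 3 and 176, 217 and 241 CPM at 39 °C, with naive library 1 well under the other 5, and was not called (adjusted p = 0.278). Without naive library 2 it was called higher, with a log2 fold change of 0.64, and without naive library 1 the value was 0.079. Rbpj, through which Notch acts on DNA (1.27 ± 0.085), and the protease gene Adam10 (0.73 ± 0.077, log2 fold change ± SE) rose. The gamma secretase gene Psen2 (-1.17 ± 0.077) and the ligand gene Jag2 (-1.44 ± 0.16, log2 fold change ± SE) fell. Of 13 Notch targets 6 could be tested and 5 of them fell. Dtx1 (Deltex 1, chromosome 5, 120680202 to 120711927), a ubiquitin ligase linked to T cell anergy, showed one of the largest falls of all genes, from 277, 315 and 335 to 12.7, 11.9 and 11.2 CPM (log2 fold change -4.69 ± 0.11, SE, adjusted p = 9.45e-09). Hes1 had 21 counts over the naive group and 3 at 39 °C, too few to test. Of 26 TRP channels 9 were tested, 0 rose and 4 fell. Trpv2 fell from 73.1, 78.4 and 82.2 to 38.6, 42.7 and 37.1 CPM, and Trpv4 lay at 2.23, 1.63 and 1.62 against 1.58, 1.68 and 1.74 CPM and was not called. Trpv1, the capsaicin receptor, had 0 and 2 counts in the groups.

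Lineage factors of helper T cells moved in both directions, with 8 of 22 higher and 7 lower, against 27.9% and 27.4% of all genes. Bcl6, the factor of follicular helper cells, rose from 25.7, 32.5 and 31.6 to 138, 144 and 143 CPM. Tbx21 (T-bet), that of Th1 cells, rose from a low level, by 2.36 ± 0.26 (log2 fold change ± SE) to a mean of 5.47 ± 1.02 CPM (SD, n = 3). Gata3, that of Th2 cells (-0.81 ± 0.084), Prdm1 (-1.58 ± 0.18) and Runx3 (-1.13 ± 0.11, log2 fold change ± SE) fell. Of 18 regulatory T cell genes 10 rose and 3 fell, with Foxp3 at 39.5, 49.6 and 45.4 CPM in naive libraries and 90.2, 90.7 and 92.00 CPM at 39 °C and Gpr83 at 1.27 ± 0.084 (log2 fold change ± SE). Several members of that list, such as Il2ra and Tnfrsf4, are also activation genes. Of 12 semaphorins and plexins 4 rose and 6 fell, against 27.9% and 27.4% of all genes. Sema7a rose from 1.76, 3.83 and 3.25 to 207, 204 and 194 CPM. Sema4a, in the opposite direction, fell from 145, 168 and 164 to 18.8, 16.1 and 15.01 CPM. G protein regulators also differed, with Rgs16 at 3.72 ± 0.14, Rgs2 at -1.63 ± 0.097 and Rgs14 at -1.75 ± 0.077 (log2 fold change ± SE). Among 29 chromatin genes 13 rose and 3 fell, and the number that fell was 6 without naive library 1 and 1 without naive library 3, 39 °C library 1 or 39 °C library 2. Kdm6b, a demethylase of histone H3, rose from 115, 186 and 158 to 932, 974 and 1041 CPM and Dnmt3a by 1.80 ± 0.15 (log2 fold change ± SE), and Tet1, which oxidises methylated DNA, fell from 16.9, 25.2 and 19.9 to 3.03, 2.56 and 3.54 CPM.

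**Figure D5:**
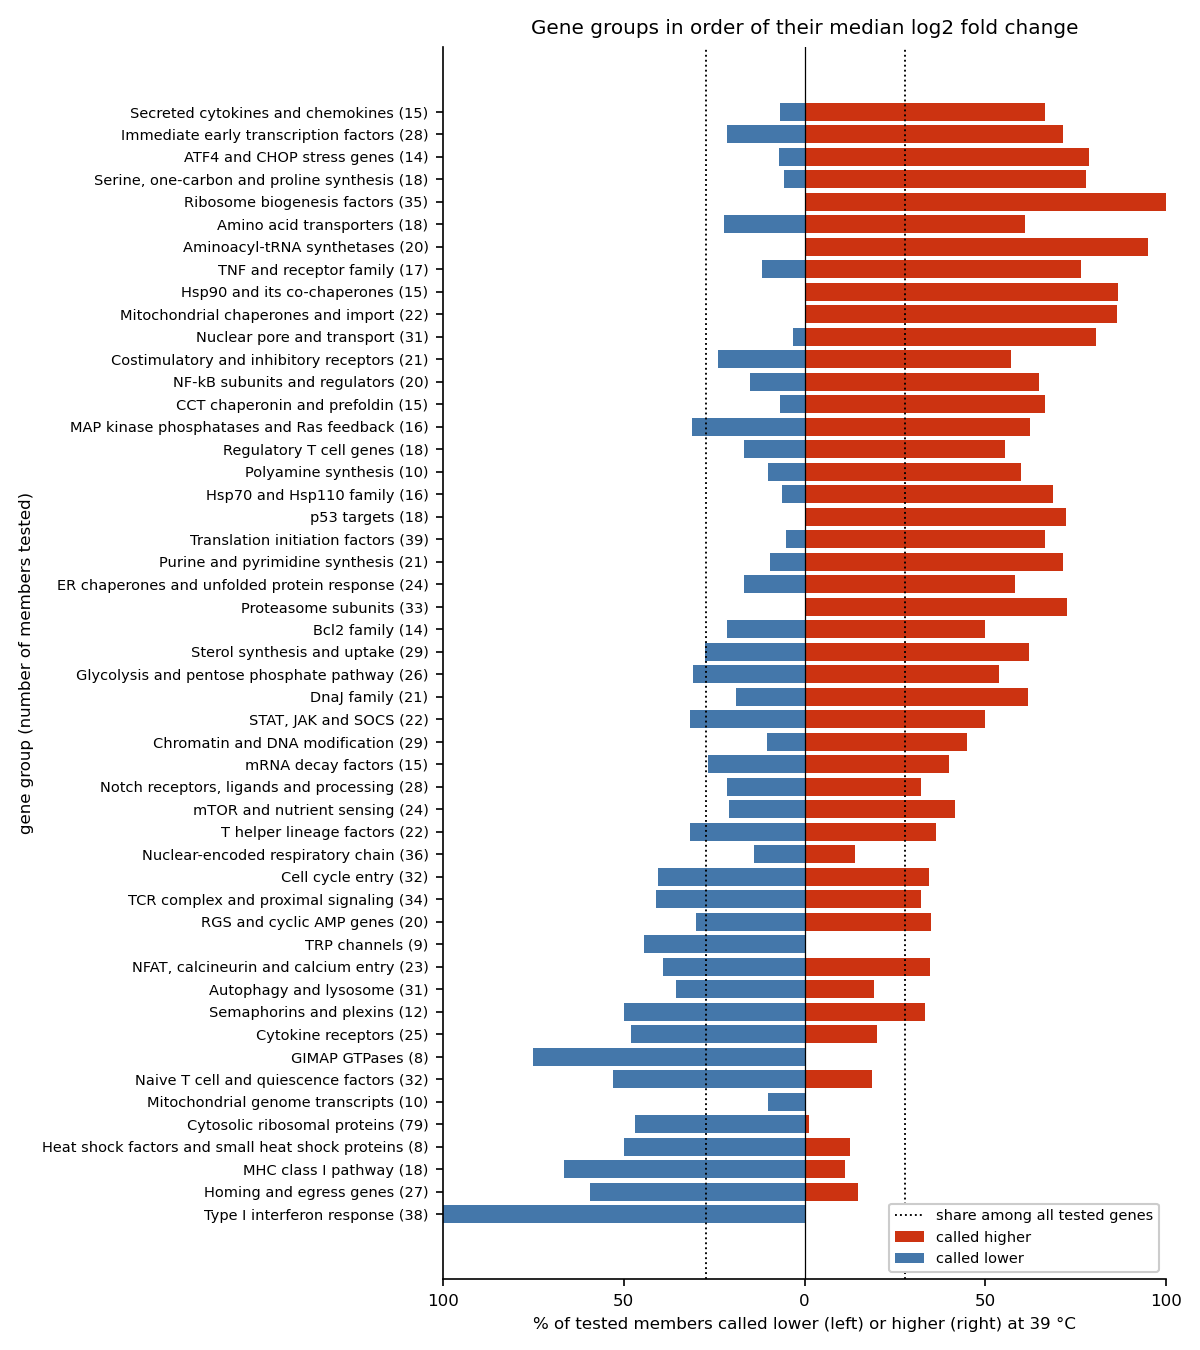
Share of tested members called higher (right) or lower (left) for 50 gene groups of at least 8 tested members, in order of their median log2 fold change, with dotted lines at the 27.9% and 27.4% of all tested genes. Ribosome biogenesis reaches 35 of 35 upward and the type I interferon response 38 of 38 downward.

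The largest single changes came from genes of many roles. Among genes that average 5 CPM or more and whose groups are separate, the largest rises after Chac1 were in Pdgfb, a growth factor chain, from 0.339, 0.496 and 0.728 to 62.2, 62.8 and 57.9 CPM, and in Il2. Akr1c18, an aldo-keto reductase, rose by 5.61 ± 0.24 and Hivep3, a zinc finger protein, by 5.40 ± 0.16 (log2 fold change ± SE). Beyond haemoglobin, the largest falls were in Slc16a5, a monocarboxylate transporter, from 47.1, 42.5 and 50.9 to 0.822, 0.641 and 0.834 CPM, and in Igfbp4, which binds insulin-like growth factors, from 760.2, 647 and 767 to 22.3, 20.9 and 21.6 CPM. Adamts14 and Ampd1 (AMP deaminase 1) fell, with log2 fold changes of -4.87 ± 0.25 and -4.39 ± 0.26 (SE). The largest loss in CPM was in Tmsb4x, an actin-binding peptide, from 4178, 2665 and 3022 to 1602, 1429 and 1338 CPM, followed by Arhgap45 and Coro1a, both regulators of the actin skeleton, at -0.86 ± 0.13 and -0.82 ± 0.11 (log2 fold change ± SE). Among long noncoding genes Mir155hg, the host of miR-155, rose from 2.78, 1.99 and 2.69 to 97.3, 97.4 and 92.1 CPM and Mir17hg, the host of the miR-17 to miR-92 cluster, from 36.8, 32.3 and 30.9 to 107, 109.7 and 107 CPM; these are host transcripts, not mature microRNAs. Map2k3os, an antisense transcript, rose by 4.09 ± 0.20 (log2 fold change ± SE), but the strand setting of the counting is not given, so its reads cannot be told apart from those of overlapping genes. F3 (tissue factor) had no count in naive libraries and 23, 11 and 15 counts at 39 °C, at least 17.9-fold higher with the naive group set to 3 counts in all.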

How the data were processed

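Per the labels' protocols, RNA was extracted in TRIzol, and libraries were made with a TruSeq RNA kit. The authors deposited 1 table per library with raw counts of reads per gene, not normalised. HISAT2, HTSeq, FastQC and DESeq2, and GRCm38 as the build, are listed in the submitters' processing notes; roles, versions, annotation and strand setting are not given in the sources used here. Without the strand setting, overlapping and antisense genes cannot be told apart. Of 55573 gene identifiers 55480 matched GENCODE M21, which gave symbols, GRCm38 coordinates and exon lengths.

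The 6 libraries were fitted alone with edgeR 4.0.16 (R 4.3.3): filterByExpr with a minimum count of 10 and a minimum total of 15, TMM scaling, quasi-likelihood F tests (2-sided) and Benjamini-Hochberg adjustment over 12959 genes, threshold 0.05. The SE is the fold change on the log2 scale divided by the root of F. The contrasts with 37 °C come from 1 fit of all 9 libraries over 13328 genes. On simulated counts with the sizes of these 6 libraries (12952 genes tested) the fit recovered 49 of 49 genes changed by 2 on the log2 scale, 45 of 49 at 1, 24 of 50 at 0.585 and 7 of 50 at 0.32, and called 3 unchanged genes. The simulation changed far fewer genes than were called here, up and down alike, and its spread followed the mean level alone. Its number of false calls therefore does not carry over to the data. Libraries within a group differed by more than sampling noise. Each is taken as 1 replicate, though that spread does not show that they came from separate animals or wells. Bounds account for counting error alone: there are no molecular identifiers, and PCR copies of a molecule count more than once. Promoters and their starts are those of RefSeq on GRCm38.p6.

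The comparison, the 60 gene lists (9 of them cell type markers) and the genes named were chosen with earlier results of these data known. The genes named are the 12 with the largest rise and fall and the 8 with the largest gain and loss in CPM among called genes that average 5 CPM or more and have separate groups, without predicted gene models. To these come the called members of each list with the lowest adjusted p (up to 4), the 6 genes with most counts among those at 0 in a group, 6 long noncoding genes and 109 genes fixed by name. List members outside this rule are marked as chosen after their values were seen. Alternatives were RLE, upper-quartile and library size scaling, other count filters, DESeq2 1.42.0, all 9 libraries in 1 fit, a replicate block, a threshold of 0.01, a 2-fold minimum and leaving out each library. The check for outlying samples needs more than 3 samples a group and was not applied. Some genes under this rule are not reported here.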

Additional observations from a re-analysis of the deposited data

How the results depend on the processing

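The number of genes called stayed within 1.5 times of 3612 higher and 3556 lower under every alternative but 1. With a 2-fold minimum it was 1176 and 1192. Other scalings and filters, DESeq2 and the fit of all 9 libraries gave 2724 to 3887 higher and 3374 to 4636 lower, and a threshold of 0.01 gave 2717 and 2593. Leaving out 1 library gave 3025 to 4009 higher and 2913 to 3929 lower. Deviations from the group mean correlated at 0.344, -0.0254 and 0.0153 between libraries of the same number. Between libraries of different number they reached 0.369 (naive library 2 with 39 °C library 3) and -0.354 (naive library 2 with 39 °C library 1). The numbers are thus not taken as pairs. The replicate block gave 3968 higher and 3838 lower and called 4 mitochondrially encoded transcripts lower. The log2 fold change of Notch1 passed the threshold with the replicate block (0.485) and with genes of any count kept (0.365). In some lists a number of 0 to 2 called members moved by 1 when a single library was left out. Of 302 named genes called, 291 kept their direction and their side of the threshold under all settings. Values changed sign in 5 named genes, none of them called in either setting: Cd3e (-0.046 to 0.029 without single libraries), Cd44 (-0.025 with upper-quartile scaling), Pkm (-0.090 with upper-quartile scaling and -0.0055 to 0.136 without single libraries), Runx1 (-0.107 with upper-quartile scaling) and Trpv4 (-0.219 to 0.031 without single libraries); the cause was not tested. The fit's median SE was 0.128 on the log2 scale, so that changes under about 0.3 were mostly below what 3 libraries a group could show.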

Other observations

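The constant regions of the antigen receptors, some of which are in the CD4 T cell and B cell marker lists, had these values. Trbc1 and Trbc2, the constant regions of the T cell receptor beta chain, were at 856, 528 and 631 CPM and at 1204, 732 and 877 CPM in naive libraries 1 to 3, and at 476, 459 and 401 CPM and 646, 593 and 546 CPM at 39 °C. Both were called lower (log2 fold changes -0.59 ± 0.16 and -0.66 ± 0.17, SE, n = 3 per group, edgeR's quasi-likelihood test, adjusted p = 0.0128 and 0.00867). Trac, the constant region of the alpha chain, was at 1008, 658 and 753 CPM in naive libraries and at 1088, 1025 and 962 CPM at 39 °C, with a log2 fold change of 0.35 ± 0.15 (SE, adjusted p = 0.0767), which did not pass the threshold. The beta chain genes are near-identical copies, and naive library 1 was the highest naive library for all 3 genes. Of 10 immunoglobulin constant genes tested, all 10 were called lower, with a median log2 fold change of -2.24. These genes were chosen after their values were seen.

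The genes annotated as the microRNA precursors Mir132 and Mir212, neighbours in 1 cluster, had 0 to 0.142 CPM and 0 to 0.0677 CPM in naive libraries and 0.973 to 1.83 CPM and 0.764 to 1.07 CPM at 39 °C. Both were called higher (adjusted p = 0.000256 and 0.000258). Such a kit does not capture mature microRNAs, so the counts likely come from longer transcripts over these genes, which was not tested. These values too were chosen after they were seen.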
